A study of Mus musculus with 12 samples.

Results

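The selenoprotein genes described here are the glutathione peroxidase genes Gpx1, Gpx2, Gpx3 and Gpx4, the thioredoxin reductase genes Txnrd1, Txnrd2 and Txnrd3, the selenoprotein P gene Sepp1, and Selenof, measured in the colon epithelium of mice. These 9 of 47632 genes were chosen by their measured values, as selenoproteins whose levels shifted between groups, so their values are given as a description and no test was applied to them. The other 8 were found by symbol. Selenof was found by its Ensembl identifier, ENSMUSG00000037072, because its symbol had been turned into the number of a date in the deposited tables.

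The cells were epithelial cells isolated with EDTA from the colons of C57/BL6 mice. Tfeb flox/flox animals carry floxed alleles of Tfeb, which encodes a transcription factor of lysosomal and stress-response genes, and served as controls. Tfeb ΔIEC animals carry the same floxed alleles together with Cre recombinase driven by the villin promoter, which is active in the intestinal epithelium, so other cell types keep Tfeb. Both genotypes were sampled on Day 0 (baseline), Day 4 (end of administration) and Day 11 (after recovery) of an experiment with dextran sulfate sodium (DSS), a detergent-like polymer that injures the colon epithelium, with 2 animals in each of 6 groups and 12 in all. The labels give 2.5% DSS, for the Day 0 samples as well, and the study's methods give a different concentration. Day 0 is called baseline here after the study's account. Ages were 10 and 12 weeks on Day 0, 12 weeks on Day 4 and 10 weeks on Day 11, alike in both genotypes, so day and age cannot be told apart for Days 4 and 11.

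Selenoproteins contain selenocysteine, an amino acid with selenium in place of the sulfur of cysteine. It is inserted at a UGA codon, otherwise a stop signal, when the mRNA carries a selenocysteine insertion sequence. Glutathione peroxidases use glutathione to reduce hydrogen peroxide and lipid hydroperoxides, and thioredoxin reductases keep thioredoxins reduced with NADPH. Selenoprotein P, the product of Sepp1, is a secreted carrier of selenium with many selenocysteines, made mostly by the liver and also by other cells. Selenof is a selenoprotein of the endoplasmic reticulum that binds UDP-glucose:glycoprotein glucosyltransferase, an enzyme of glycoprotein quality control.

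The coding sequence around the selenocysteine codon is shown for the 7 genes that were listed above 0, because this codon is the feature that the 9 genes share. The sequences are from GENCODE transcripts on GRCm38, the assembly that mm10 names, 5′ to 3′ on the coding strand, and capitals mark the selenocysteine codon.
Gpx1: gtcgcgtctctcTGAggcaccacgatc
Gpx2: gtggcgtcactcTGAggaacaactacc
Gpx4: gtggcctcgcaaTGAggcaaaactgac
Txnrd2: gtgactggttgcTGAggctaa
Txnrd3: cagaaaggctgcTGAggctag
Sepp1: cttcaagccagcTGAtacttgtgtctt
Selenof: gaagtctgcggaTGAaaattggggagg

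The codon lay in exon 1 of 2 of Gpx1 (chr9:108339451-108339453, + strand), in exon 1 of 2 of Gpx2 (chr12:76795256-76795258, − strand) and in exon 3 of 7 of Gpx4 (chr10:80054737-80054739, + strand). In the thioredoxin reductases it was separated from the stop codon by 1 codon, in exon 17 of 17 of Txnrd2 (chr16:18477772-18477774, + strand) and in exon 16 of 16 of Txnrd3 (chr6:89674789-89674791, + strand). The Sepp1 codon shown is the first of 10 and lay in exon 2 of 5 (chr15:3274848-3274850, + strand). In Selenof it was codon 93, in exon 3 of 5 (chr3:144590645-144590647, + strand).

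Levels are FPKM, the number of sequenced fragments relative to transcript length and library size, as pooled by the authors over the 2 animals of a group. Each genotype therefore has 1 value per day, with no spread between animals, and no difference below could be compared with replicate error. The number of reads behind a value is unknown. Differences between genotypes are log2 of (ΔIEC FPKM + 1)/(flox/flox FPKM + 1), among genes with at least 1 FPKM in either genotype. The tables of the 3 days were normalised separately, so levels of different days are set side by side only. The Day 4 and Day 11 tables do not behave as independent measurements: among genes above 0 in both tables, 14.3% held identical flox/flox values and 10.2% identical ΔIEC values, against 0 identical values between Day 0 and either later day.

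Sepp1 and Selenof differed between genotypes by more than 4-fold after DSS only, in opposite directions, and Txnrd3 differed on every day. On Days 4 and 11 Sepp1 was 80.9 to 82.8 times higher in ΔIEC cells, Selenof was 18.4 to 48.6 times lower, and Txnrd3 was listed at 397 to 442 FPKM in ΔIEC cells and at 0 in flox/flox cells. Of the 9 genes, 7 passed 1 FPKM on each day, and Gpx3 and Txnrd1 were listed at 0 in all 6 groups. On Day 0, 1 of the 9 genes (Txnrd3) was at least 4-fold lower in ΔIEC cells and 0 were at least 4-fold higher, against 3.35% and 2.09% of the 9993 genes that passed the filter. On Day 4, 1 gene (Selenof) was at least 4-fold lower and 2 (Txnrd3 and Sepp1) were at least 4-fold higher, against 10.3% and 7.36% of 9371 genes. On Day 11 the same genes passed 4-fold in the same directions, against 10.2% and 7.46% of 9365 genes. Nothing is read from these counts about the 9 genes, since their values chose them. The median log2 difference of the 7 genes was -0.82, -0.87 and -0.86 on Days 0, 4 and 11, and that of all genes was 0.06, 0.06 and 0.08.

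**Figure D1:**
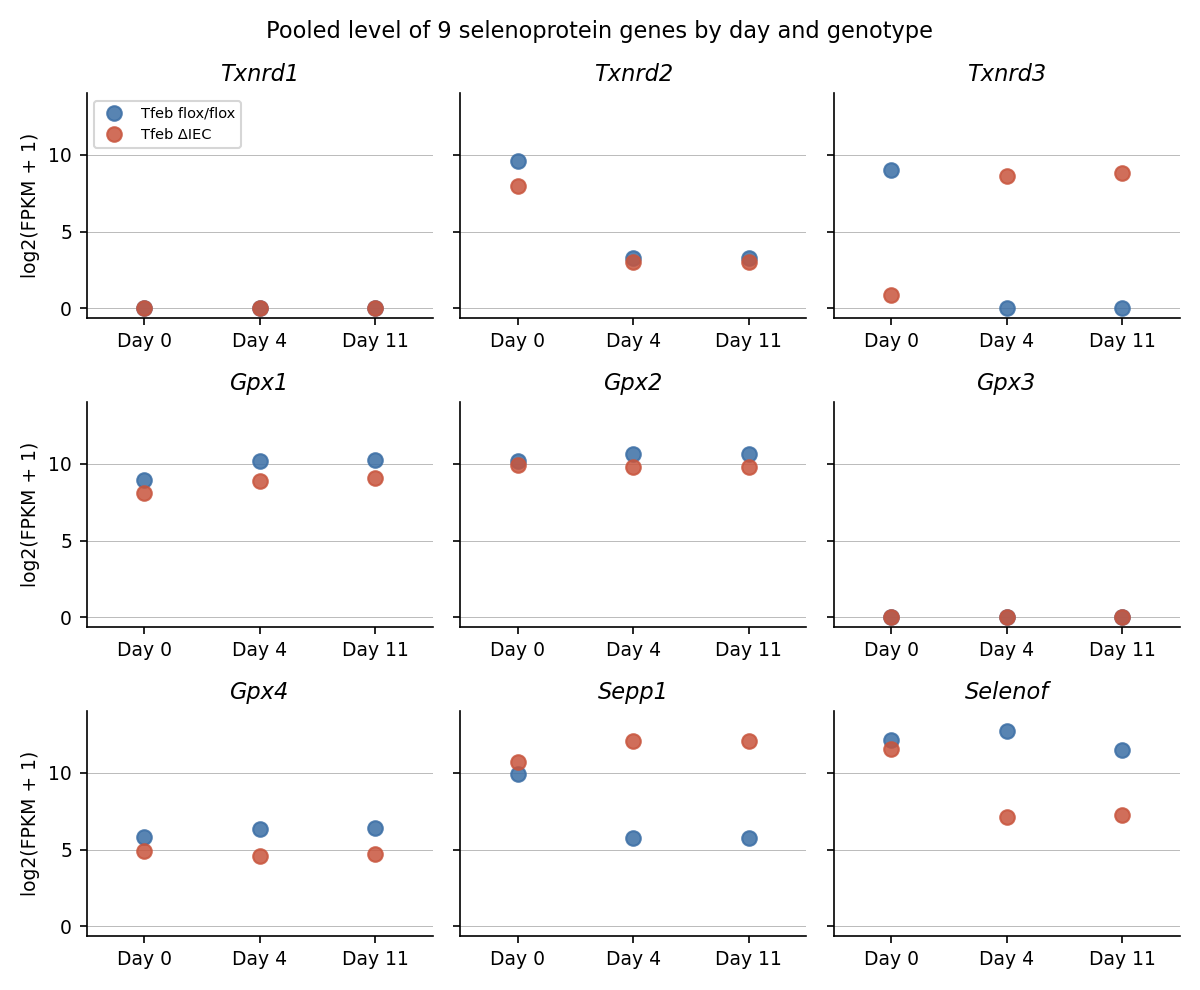
Pooled level of each of the 9 genes as log2(FPKM + 1), by day, in Tfeb flox/flox (blue) and Tfeb ΔIEC (red) cells. Each point is 1 pooled value of 2 animals without error. Gpx3 and Txnrd1 lie at 0 throughout, the Txnrd3 points exchange places between Day 0 and Day 4, and the Sepp1 and Selenof points separate on Days 4 and 11 in opposite directions.

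The deposited values of the 2 genotypes did not have the same sum. The summed FPKM of flox/flox cells was 1.79 times that of ΔIEC cells on Day 4 and 1.78 times on Day 11. On Day 0 the sums were 975316 and 973878 FPKM. Dividing each group by its sum raised the median of all genes from 0.06 to 0.68 on Day 4 and from 0.08 to 0.70 on Day 11, and raised the share of 4-fold calls that were higher in ΔIEC cells from 41.7% to 74.4% and from 42.4% to 74.6%. The genes among the 9 that passed 4-fold were the same with and without this division. Differences also followed transcript length: on Day 4 the median log2 difference was -1.28 for transcripts of 502 to 808 nt and 0.63 for those of 2344 to 2842 nt. Where a difference of the 9 genes changes its sign under either scaling, this is said beside it. For any other gene named below, a Day 4 level that is higher in flox/flox cells by less than 1.79 times becomes the lower of the pair after division by the sum, as it does for Txn2 and Lrp1.

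Gpx1 encodes the widely expressed cytosolic glutathione peroxidase (deposited locus chr9:108338903-108340250). It stood at 495 FPKM in flox/flox and 280.2 in ΔIEC cells on Day 0, at 1152 and 475 on Day 4, and at 1201 and 544 on Day 11. The ΔIEC value was the lower of the pair on each day, at 56.6%, 41.3% and 45.3% of the flox/flox value, and no day reached 4-fold. The log2 difference of Gpx1 was -0.82, -1.28 and -1.14, and became 0.00 on Day 4 and 0.08 on Day 11 when centred on genes of the same transcript length.

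Gpx2 encodes the glutathione peroxidase of the gastrointestinal epithelium. It was among the most abundant of these mRNAs in every group, at 1148 FPKM in flox/flox and 974 in ΔIEC cells on Day 0, 1637 and 895 on Day 4, and 1629 and 896 on Day 11. Gpx2 had the narrowest range of the 7 genes listed above 0, and its highest value was 1.83 times its lowest. Its log2 difference of -0.87 on Day 4 was -0.03 after division by the sum. Its Day 0 difference of -0.24 became 0.07 with centring on transcript length. The processed copy Gpx2-ps1 shares sequence with Gpx2, and 94.0% of the 50-base sequences of Gpx2 occur in no other gene. Gpx2-ps1 was listed at 322 FPKM in flox/flox and 184 in ΔIEC cells on Day 4, so reads of the pair could not be separated with certainty. The deposited locus of Gpx2 (chr12:76765538-76921412) spans 155875 nt, against 3222 nt of the GENCODE gene, which Fntb overlaps.

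Gpx4 encodes the phospholipid hydroperoxide glutathione peroxidase, which protects membrane lipids and limits ferroptosis (chr10:80047166-80056439). Of the 3 glutathione peroxidase genes listed above 0 it had the lowest levels, at 55.4 FPKM in flox/flox and 28.8 in ΔIEC cells on Day 0, 80.9 and 23.4 on Day 4, and 85.2 and 25.6 on Day 11. The ΔIEC value was lower on each day and reached 28.9% of the flox/flox value on Day 4. The log2 difference of Gpx4 was -0.92, -1.75 and -1.70. It stayed below 0 under both scalings, at -0.93 on Day 4 after division by the sum and -1.14 with centring on transcript length. Only 65.3% of its 50-base sequences are unique, and the others also occur in the copy Gpx4-ps2 or in AC122253.3.

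Gpx3, the gene of the secreted plasma glutathione peroxidase, was listed at 0 in all 6 groups. Glutathione peroxidases with cysteine in place of selenocysteine were near 0 as well. Of Gpx5, Gpx6, Gpx7 and Gpx8, only Gpx7 reached 1 FPKM on any day, and the summed level of the 4 was at most 1.45 FPKM in any group.

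Txnrd1 encodes the cytosolic thioredoxin reductase. It was listed at 0 in all 6 groups, but its deposited locus covers 95 nt (chr10:82859206-82859300), 0.149% of the 63762 nt of the GENCODE gene. The value of 0 therefore says nothing about transcripts from the rest of the gene.

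Txnrd2 encodes the mitochondrial thioredoxin reductase. It was listed at 773 FPKM in flox/flox and 246 in ΔIEC cells on Day 0, at 8.82 and 7.20 on Day 4, and at 8.84 and 7.23 on Day 11. The ΔIEC value was 31.9% of the flox/flox value on Day 0 and 81.6% on Day 4. Its log2 difference was -1.64 on Day 0, short of 4-fold, and -0.26 on Days 4 and 11. After division by the sum the later differences became 0.49 and 0.48, so they have no direction that holds. Across the separately normalised tables, the Day 0 level was 87.6 times the Day 4 level in flox/flox and 34.2 times in ΔIEC cells. The deposited locus of Txnrd2 (chr16:18348182-18479073) extends beyond the gene and also holds Arvcf, which was at most at 1.60 FPKM in any group.

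Txnrd3 encodes the thioredoxin-glutathione reductase, best known from the testis (chr6:89643988-89675529). It was listed at 513 FPKM in flox/flox and 0.814 in ΔIEC cells on Day 0. On Day 4 it was listed at 0 in flox/flox and 397 in ΔIEC cells, and on Day 11 at 0 and 442. The ΔIEC level on Day 0 was 631 times lower, a log2 difference of -8.15, and the direction was the opposite on Days 4 and 11, for which a value of 0 allows no fold. All 50-base sequences of Txnrd3 are unique among GENCODE transcripts. Of 8177 genes that passed 1 FPKM on every day, 13 were at least 4-fold lower in ΔIEC cells on Day 0 and at least 4-fold higher on both later days, as Txnrd3 was, and 30 showed the opposite order.

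Sepp1 was the highest of the selenoprotein mRNAs in ΔIEC cells of the later days (chr15:3268547-3280508). It was listed at 986 FPKM in flox/flox and 1639 in ΔIEC cells on Day 0, at 53.0 and 4389.6 on Day 4, and at 54.3 and 4393 on Day 11. The ΔIEC level was 1.66 times the flox/flox level on Day 0, 82.8 times on Day 4 and 80.9 times on Day 11. The log2 differences of 0.73, 6.34 and 6.31 kept their sign under division by the sum and with centring on all genes or on transcript length. Across the separately normalised tables, the Day 4 level was 0.054 times the Day 0 level in flox/flox and 2.68 times in ΔIEC cells. The 3′ end of Sepp1 overlaps Ccdc152 on the other strand, which was listed at 0 in every group, and 86.5% of the 50-base sequences of Sepp1 are unique.

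Macrophages also make selenoprotein P, so macrophage markers were examined beside Sepp1. The summed level of 9 macrophage markers was 3.97 to 17.8 FPKM over the 6 groups, 6.61 in flox/flox and 14.9 in ΔIEC cells on Day 4. Cd68, C1qc, Adgre1 and Mrc1 were listed at 0 in every group, and of the 4 markers that passed 1 FPKM on Days 4 and 11, 2 were at least 4-fold higher in ΔIEC cells, as Sepp1 was. These were Cd14, at 1.46 FPKM in flox/flox and 9.11 in ΔIEC cells on Day 4, and C1qb, at 0 and 3.26. The other 2, C1qa and Lyz2, were at 1.96 and 0.663 FPKM and at 2.88 and 1.77 FPKM. The part of macrophages in the Sepp1 difference was not tested. Of the 3 receptor genes for selenoprotein P, Lrp1, Lrp2 and Lrp8, only Lrp1 reached 1 FPKM on any day, and their sum on Day 4 was 3.26 FPKM in flox/flox and 1.98 in ΔIEC cells.

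Selenof differed between genotypes in the direction opposite to Sepp1 (chr3:144570304-144597680). It was listed at 4597 FPKM in flox/flox and 3025 in ΔIEC cells on Day 0, at 6807 and 140.1 on Day 4, and at 2859 and 156 on Day 11. The ΔIEC level was 65.8% of the flox/flox level on Day 0, 2.06% on Day 4 and 5.44% on Day 11. The log2 differences were -0.60, -5.59 and -4.19. Division by the sum gave -4.76 on Day 4 and -3.36 on Day 11, still past 4-fold. All 50-base sequences of Selenof are unique.

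Selenof also differed between the Day 4 and Day 11 tables. Its flox/flox level on Day 11 was 0.420 times that on Day 4. Of 753 genes with at least 100 FPKM in flox/flox cells on either day, 4 (0.531%) differed by 2-fold or more between those tables, and Selenof was 1 of them. In ΔIEC cells the Day 11 level of Selenof was 1.11 times the Day 4 level. The other members had Day 11 levels of 0.995 to 1.14 times the Day 4 level wherever both were above 0.

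**Figure D2:**
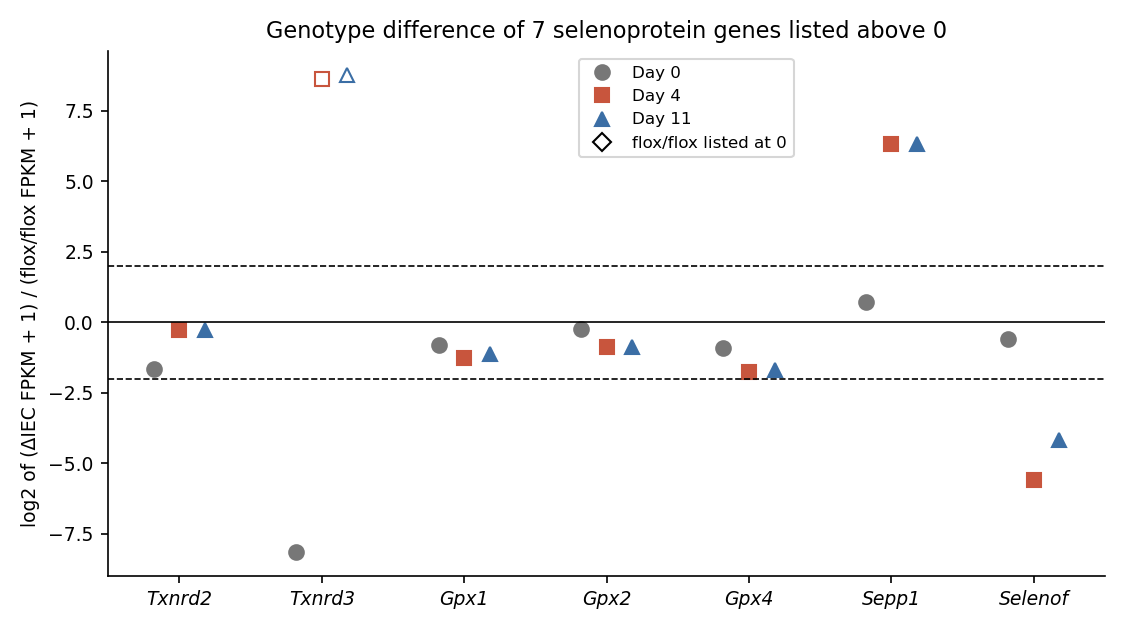
Log2 difference between Tfeb ΔIEC and Tfeb flox/flox cells for the 7 genes listed above 0, on Day 0 (circles), Day 4 (squares) and Day 11 (triangles). Dashed lines mark 4-fold, and open symbols mark a flox/flox value of 0, where the height is set by the added 1 FPKM. Txnrd3 lies below the lower line on Day 0, at -8.15, and Sepp1 lies at 6.34 and Selenof at -5.59 on Day 4.

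The name under which these genes were gathered, selenoproteins with strongly shifting values, holds for some of them only. Over the 6 group values, the log2 range was 9.01 for Txnrd3 (with a value of 0 counted as 0), 6.56 for Txnrd2, 6.35 for Sepp1 and 5.59 for Selenof. It was 2.10 for Gpx1, 1.82 for Gpx4 and 0.87 for Gpx2, and Gpx3 and Txnrd1 had no range. Selenoh, which is not among the 9, had a range of 8.37, the next after Txnrd3 among the 24 genes with a selenocysteine annotation in GENCODE. Of the 9 such genes with a highest level of at least 100 FPKM, 5 ranged over 32-fold or more, and of all 957 genes at that level 87 did (9.09%). Of these 5 genes, 4 are members that were chosen for their shifts, so the comparison restates the choice. The 6 values come from 3 separately normalised tables.

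**Figure D3:**
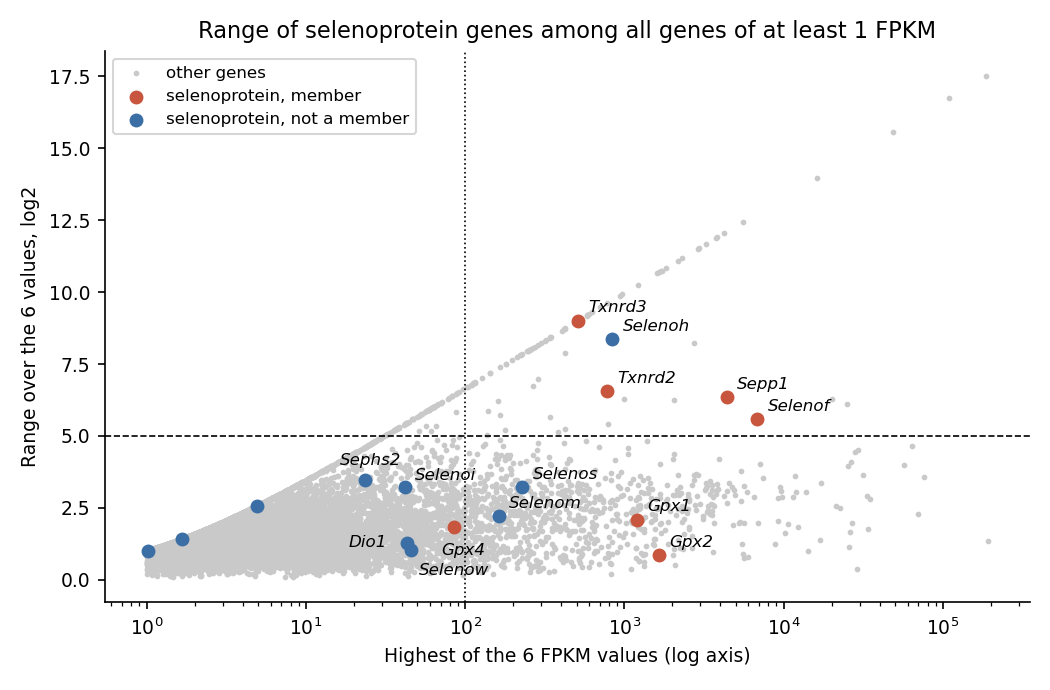
Highest of the 6 FPKM values (log axis) and log2 range over the 6 values for genes of at least 1 FPKM. Red points are described members, blue points other selenoprotein genes and grey points all other genes. The dashed line is 32-fold and the dotted line 100 FPKM. Txnrd3 (9.01), Selenoh (8.37), Txnrd2, Sepp1 and Selenof lie above the dashed line, and Gpx1 and Gpx2 lie well below it at similar levels.

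The make-up of the summed selenoprotein mRNA differed between genotypes on each day. FPKM are per length and can be added within a group, and the 24 annotated genes summed to 9624 FPKM in flox/flox and 6403 in ΔIEC cells on Day 0, to 10762 and 6690 on Day 4, and to 6776 and 6797 on Day 11. As a share of the FPKM of all genes they were 0.987% and 0.657% on Day 0, 0.735% and 0.816% on Day 4, and 0.460% and 0.822% on Day 11, so the Day 4 order turns on this scale. Selenof was the largest part in flox/flox cells on each day, at 47.8%, 63.3% and 42.2%, and in ΔIEC cells on Day 0, at 47.2%. In ΔIEC cells of Days 4 and 11 the largest part was Sepp1, at 65.6% and 64.6%, and Selenof was 2.09% on Day 4. Sepp1 in flox/flox cells was 0.493% of the sum on Day 4. On Day 0 Sepp1 was 10.2% of the sum in flox/flox and 25.6% in ΔIEC cells, and Selenoh was 8.73% and 0.036%.

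**Figure D4:**
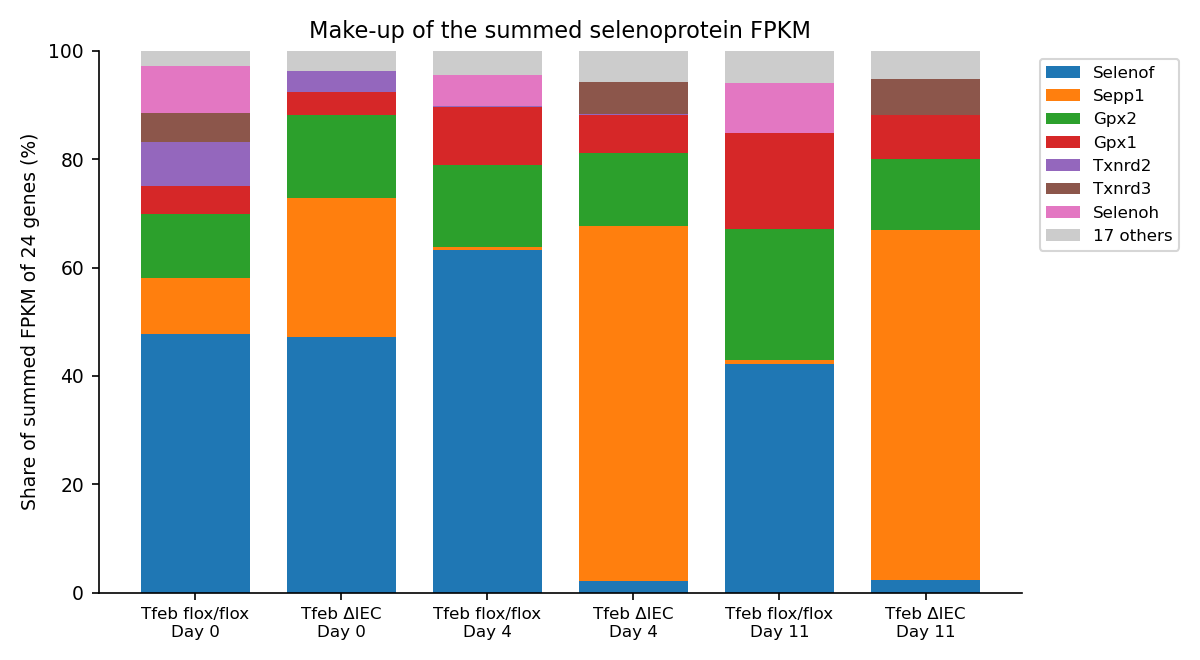
Share in percent of the summed FPKM of 24 selenoprotein genes taken by each of 7 genes and by the other 17, in each genotype and day. Selenof (blue) fills the largest part of the flox/flox bars, and Sepp1 (orange) fills 65.6% of the ΔIEC bar on Day 4.

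The other selenoprotein list held 16 genes, which include Gpx6, a gene with cysteine at this position in the mouse. Of 9, 10 and 9 genes that passed 1 FPKM on Days 0, 4 and 11, 1, 3 and 3 were at least 4-fold lower in ΔIEC cells and 1, 1 and 1 were at least 4-fold higher. After division by the sum, 2 were lower and 1 was higher on Day 4, and on Day 11 2 were lower and 4 higher (Dio1, Selenoi, Selenos and Sephs2). All genes turned the same way on Day 11, from 951 lower and 699 higher to 480 lower and 1408 higher. Selenoh, a nucleolar selenoprotein, was lower on every day, with 840.3 FPKM in flox/flox and 2.28 in ΔIEC cells on Day 0, 630.5 and 1.54 on Day 4, and 626 and 2.26 on Day 11. Its log2 difference was near that of Txnrd3 on Day 0, at -8.00, and remained at -7.96 and -7.59. The deposited locus of Selenoh (chr2:84600071-84715180) spans 115110 nt, against 1556 nt of the GENCODE gene. How reads of this locus were divided among its genes is unknown. Selenom, an endoplasmic reticulum protein of the same fold family as Selenof, was at 163 FPKM in flox/flox and 34.4 in ΔIEC cells on Day 4, a log2 difference of -2.21 that fell short of 4-fold after division by the sum. Msrb1, a methionine sulfoxide reductase, was at 4.66 FPKM in flox/flox cells on Day 4 and listed at 0 in ΔIEC cells, and on Day 0 it was listed at 0 in flox/flox cells and at 2.44 in ΔIEC cells. Selenoi, an enzyme of phosphatidylethanolamine synthesis, was at 3.53 and 41.7 FPKM on Day 0 with a log2 difference of 3.24, and at 5.09 and 12.1 FPKM on Day 4. Selenos, of the degradation machinery of the endoplasmic reticulum, was at 154 and 227 FPKM on Day 4 and did not pass 4-fold.

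Selenocysteine is made on its own transfer RNA from serine and selenophosphate. Of 10 genes of this synthesis and of the insertion step, 9, 8 and 8 passed 1 FPKM on Days 0, 4 and 11. Of these, 0 passed 4-fold on Day 0, and 1 was lower and 2 were higher in ΔIEC cells on each of Days 4 and 11. After division by the sum, the 2 higher genes still passed 4-fold and Pstk did not. Pstk, the kinase that phosphorylates seryl-tRNA, was lower at 8.22 FPKM in flox/flox and 0.906 in ΔIEC cells on Day 4. The deposited locus of Pstk spans 2961904 nt, against 23342 nt of the GENCODE gene, so its level may not be that of the gene alone. Sephs2, a selenophosphate synthetase that is itself a selenoprotein, was higher at 1.23 and 22.1 FPKM, and Eefsec, the elongation factor that delivers the charged tRNA, at 0.284 and 4.48 FPKM. On Day 0 Eefsec had the opposite order, at 11.5 FPKM in flox/flox and 2.28 in ΔIEC cells, a log2 difference of -1.93. The levels of Secisbp2, which binds the insertion sequence, were 6.48 FPKM in flox/flox and 3.58 in ΔIEC cells on Day 0 and 1.21 and 1.65 on Day 4. The median log2 difference of the list was 0.47 on Day 4.

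The thioredoxin system takes its electrons from the thioredoxin reductases. Of 11 genes, 10 passed 1 FPKM, 0 passed 4-fold on Day 0, and 2 were lower and 3 higher in ΔIEC cells on Days 4 and 11. After division by the sum, 0 were lower and 4 were higher on Day 4. Txn1, cytosolic thioredoxin, was at 1236 FPKM in flox/flox and 555 in ΔIEC cells on Day 0 and at 4901 and 1073 on Day 4, a log2 difference of -2.19. Txnip, the inhibitor of thioredoxin, was higher at 6.65 and 104 FPKM on Day 4, a log2 difference of 3.78. Tmx1 and Tmx2, membrane-bound thioredoxin-related proteins, were at 0.656 and 16.4 FPKM and at 0.331 and 5.11 FPKM. Txn2, the mitochondrial thioredoxin served by Txnrd2, was at 90.9 and 83.6 FPKM on Day 4 and at 104 and 85.3 on Day 0. Its levels lacked the gap between Day 0 and the later days that Txnrd2 showed.

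Of 13 glutathione system genes, 9, 10 and 10 passed 1 FPKM on Days 0, 4 and 11. Of these, 0 passed 4-fold on any day, and after division by the sum 1 (Gss) was higher on Days 4 and 11. Gss, glutathione synthetase, was at 27.8 FPKM in flox/flox and 76.2 in ΔIEC cells on Day 4, Gclm, the modifier subunit of glutamate-cysteine ligase, at 12.6 and 5.18, and Gsr, glutathione reductase, at 3.20 and 6.36. Of 13 genes of the NRF2 pathway, which regulates many antioxidant enzymes, 8 passed 1 FPKM on each day. Of these, 0 passed 4-fold on Days 0 and 4 and 1 was higher on Day 11. That gene was Nfe2l2 itself, which encodes NRF2, at 12.2 FPKM in flox/flox and 52.6 in ΔIEC cells. On Day 4 it was at 12.4 and 50.2 FPKM, a log2 difference of 1.93 just short of 4-fold that passed after division by the sum. Nqo1, its common target, was at 6.26 and 11.03 FPKM on Day 11.

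**Figure D5:**
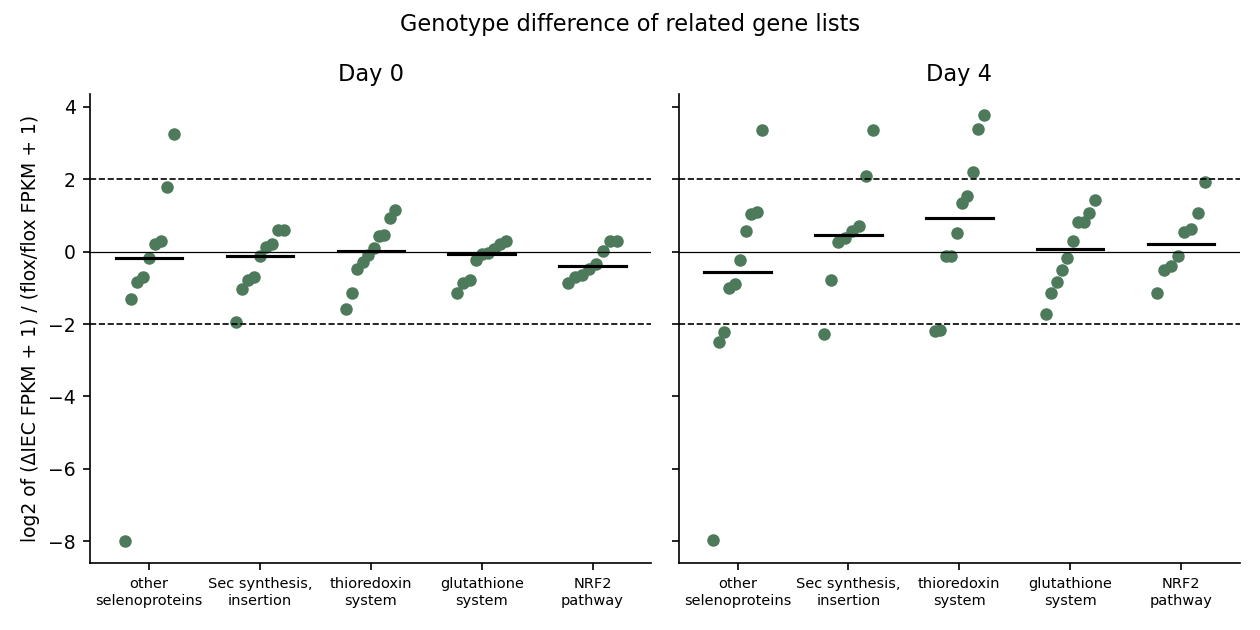
Log2 difference between genotypes on Day 0 and Day 4 for the genes of 5 related lists that passed 1 FPKM. Each point is a gene, bars are list medians and dashed lines mark 4-fold. The glutathione points lie between the dashed lines on both days (Gss passes the upper line on Day 4 after division by the sum), while thioredoxin system points lie past both lines on Day 4, of which those past the lower line return within it after division by the sum.

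The targeted gene and cell type markers give the setting of these values. Tfeb was listed at 0.901 FPKM in flox/flox and 0.185 in ΔIEC cells on Day 0, at 1.08 and 0 on Day 4, and at 1.18 and 0 on Day 11. The 9 epithelial markers were all above 1 FPKM in every group and summed to 14614 to 28078 FPKM. On Days 4 and 11, 3 of them were at least 4-fold higher in ΔIEC cells, as Sepp1 was, and their part in its difference was not tested. On Day 4 Krt20 was at 101.4 FPKM in flox/flox and 931 in ΔIEC cells, Vil1 at 30.6 and 224, and Cdh1 at 24.5 and 164. Of 5 colonocyte markers, 1 (Slc26a3, at 33.3 and 270.6 FPKM on Day 4) was also at least 4-fold higher on both days. On Day 0, when Txnrd3 was lower in ΔIEC cells, 1 of 5 colonocyte, 2 of 7 small-intestinal enterocyte, 1 of 6 goblet and 2 of 5 Paneth markers were at least 4-fold lower and 0 were higher. Among them Aqp8, a colonocyte water channel, was at 198 FPKM in flox/flox and 30.1 in ΔIEC cells, and Fcgbp, a goblet cell mucus protein, at 484 and 0. On Days 4 and 11, 1 small-intestinal enterocyte marker and 1 of 5 enteroendocrine markers were at least 4-fold lower. The part of these cell types in the Txnrd3 difference was not tested. Fibroblast and smooth muscle markers summed to at most 4.996 FPKM, lymphocyte markers to at most 5.87 and endothelial markers to at most 1.04. Neutrophil markers summed to 1.18 FPKM in flox/flox and 4.10 in ΔIEC cells on Day 0 and to 159.9 and 100.2 on Day 4, nearly all of it from Ly6g, while S100a9, Csf3r and Mpo were listed at 0 in every group. Markers of epithelial types differed between genotypes: 6 goblet cell markers summed to 115073 FPKM in flox/flox and 15408 in ΔIEC cells on Day 4, and 5 Paneth cell markers to 5436 and 658. The study places Paneth cells in the small intestine, and whether these colon cells held any was not tested. The goblet markers did not differ in 1 direction. On Day 4 Tff3, Fcgbp and Spink4 were at least 4-fold lower in ΔIEC cells, while Muc2 was at 645 FPKM in flox/flox and 1894 in ΔIEC cells and Clca1 at 432 and 1298. On Day 11 Muc2 and Clca1 were at least 4-fold higher. Selenof differed in the direction of the sums, and the part of cell type in its difference was not tested. In these pooled cells, fewer cells of a type and less mRNA per cell cannot be told apart.

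Genes of at least 10 FPKM in some group were ranked by the mean absolute distance of their centred log2 levels over the 6 group values, among 3712 genes. Nearest to Sepp1 were the pseudogenes Gm15899 and Gm20056, at distances of 0.27 and 0.43, and Akr1c14, an aldo-keto reductase gene, at 0.54. Akr1c14 was at 13.4 FPKM in flox/flox and 54.3 in ΔIEC cells on Day 0 and at 0.421 and 56.9 on Day 4. Nearest to Txnrd3 were Gm6134, Tmc4-ps and Gm13922, at distances of 1.37, 1.61 and 2.22. These are pseudogenes of 156 to 258 nt, and no gene had a distance from Txnrd3 under 1.37. Nearest to Txnrd2 were Gm15452, Gm12013 and Gm26602, at distances of 0.32, 0.52 and 0.87, all listed at 0 on Days 4 and 11.

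Promoter windows around the gene starts, from RefSeq on GRCm38.p6, were found for the members in 16 entries. The letters CACGTG, which TFEB and many related factors bind, were in 0 of the 16 windows on either strand and in 7.15% of 32851 promoter windows of all genes. The letters TGACNNNGC, as in antioxidant response elements and read on both strands, were in 1 of the 16, a window of Txnrd1, and in 12.4% of all windows. These counts describe the windows only.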

How the data were processed

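RNA of isolated colonic epithelial cells was measured in 12 mice, 2 per genotype and day, and grouped by the genotype and day that the labels give. The authors prepared full-length cDNA with a variation of SmartSeq2, sequenced paired ends on a MiSeq machine, mapped the reads to mm10 and ran Cuffdiff for each day. The submitters' processing notes name TopHat2 2.0.14 and Cuffdiff 2.1.1, and the gene annotation is not given in the sources used here. Each of the 3 deposited tables holds 47632 genes with 1 FPKM value per genotype, which the authors pooled over 2 animals. The tables also hold the authors' own fold changes, test statistics, p-values, q-values and a test status, none of which was used. Depth per sample is unknown, so no interval or floor is given, and no test between genotypes was possible from 1 pooled value each. No column of per-animal values was used.

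The tables were joined by Ensembl identifier. Log2 differences were taken with a pseudocount of 1 FPKM where either genotype reached 1 FPKM, and understate the differences of low genes. A gene was counted as past 4-fold at an absolute value of 4-fold on that scale. Where a group was at 0, no plain ratio of the levels was formed. The log2 difference and any 4-fold call then rest on the added 1 FPKM. Gene models are those of GENCODE M21 on GRCm38, which matched 47218 of 47632 genes. Transcript length is the median over a gene's transcripts, in 10 bands of equal gene number from 200 nt. Uniqueness is the share of 50-base sequences of a gene's transcripts found in no other gene. Named genes are the 9 members, genes of the listed pathways and markers where a list is described, and the 3 genes nearest in profile to each of the 3 members of widest range. Members and lists were chosen with earlier results of these data known, and the neighbouring genes and pseudogenes and the reference genes were added after their values were seen. A result for another neighbouring gene is not reported here. Alternatives were thresholds of 2-fold and 8-fold, pseudocounts of 0.1 and 5 FPKM, division of each group by its sum, a filter at 5 FPKM or none, centring on the median of all genes, and, added after seeing the data, centring on the transcript length band. The scripts ran in Python 3.11.15, used pandas 2.3.3, numpy 2.4.6 and matplotlib 3.10.9, and were tested on simulated data.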

Additional observations from a re-analysis of the deposited data

Results flagged for a closer look

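Txnrd3 stood apart because the genotypes differed in opposite directions on Day 0 and on the later days. The gene was listed at 513 FPKM in control cells and 0.814 in Tfeb ΔIEC cells on Day 0, at 0 and 397 on Day 4, and at 0 and 442 on Day 11. Each of these is 1 pooled value of 2 animals, and the difference between days was not tested.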

How the results depend on the processing

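Under 5 alternatives (2 pseudocounts, division by the sum, and centring on all genes or, added after seeing the data, on the transcript length band), 105 of 105 recomputed differences of the 7 genes listed above 0 kept their side of the 4-fold threshold. Differences of Gpx1, Gpx2 and Txnrd2 that were short of 4-fold changed sign, as given beside them. Those of Gpx1 were -1.28 on Day 4 and -1.14 on Day 11, both past 2-fold. At 2-fold, 2 members passed on Day 0 (1 at 4-fold) and 5 on each of Days 4 and 11 (3 at 4-fold), against 29.6%, 51.7% and 51.8% of all genes past 2-fold in either direction. Of the other selenoproteins, 2 passed on Day 0, and 4 did at 2-fold or with a pseudocount of 0.1 FPKM. On Days 4 and 11, 4 passed, with 7 at 2-fold, 2 at 8-fold and 2 after centring on the length band. On Day 11, 6 passed after division by the sum. Of all genes, 5.09% passed 8-fold in either direction on Day 4 and 5.14% on Day 11. The median log2 difference of the members was -0.87 on Day 4 and -0.86 on Day 11. It was -0.034 and -0.030 after division by the sum and -0.26 and -0.25 after centring on the length band. The median log2 range of the members was 2.10, and 1.50 after division by the sum. Apart from division and centring, which shift the values by construction, the cause of these changes was not tested. No paired analysis was possible because each group has 1 pooled value, and leaving out an animal was not possible for the same reason. Depth is unknown and limits the low values.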

Other observations

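Of 18 genes widely used as references for mRNA levels, a list added after the values were seen, 0 passed 4-fold between genotypes on Day 0. On Day 4, 4 were lower (Tbp, Atp5b, Cox4i1 and Rps18) and 3 were higher (Hprt, Eef2 and Sdha) in ΔIEC cells, and after division by the sum 2 were lower and 6 were higher. On Day 11, 3 were lower and 3 were higher. Eef2, a translation elongation factor, was at 568 FPKM in flox/flox and 1050.03 in ΔIEC cells on Day 0, at 49.9 and 741 on Day 4, and at 55.5 and 815 on Day 11. Hprt, a purine salvage enzyme, was at 78.5 and 142 FPKM on Day 0, 8.63 and 139 on Day 4, and 8.26 and 136 on Day 11. Actb, which encodes β-actin, stood at 5571 FPKM in flox/flox and 4973 in ΔIEC cells on Day 4, an order that turns after division by the sum. Whether these differences share a source with those of the selenoprotein genes was not tested.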
